A study of Homo sapiens with 2 samples.

Results

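Binding of the FLAG-tagged caudal-type factors wt-Cdx1 and wt-Cdx2 was followed at the loci of 4 genes used as markers of cancer stem cells, namely CD44, PROM1, ALDH1B1 and PHLDA1. A peak was taken as a member when its summit lay in a window of the gene plus about 20 kb on each side, so that position alone decided and peak height played no part. The windows in GRCh37 coordinates were chr11:35140000-35274000 for CD44 (plus strand), chr4:15949000-16106000 for PROM1 (minus strand), chr9:38372000-38419000 for ALDH1B1 (plus strand) and chr12:76399000-76446000 for PHLDA1 (minus strand). They held 28 of the 196910 FLAG-wt-Cdx1 peaks and 29 of the 218718 FLAG-wt-Cdx2 peaks.

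DLD1-TetOff is a derivative of the human colon cancer line DLD1 in which a transfected gene stays silent while doxycycline (DOX, 0.5 µg/mL) is present. One clone carried mouse FLAG-tagged wt-Cdx1 and another mouse FLAG-tagged wt-Cdx2. For each factor, 1 library was made from 10 pooled dishes that were fixed 20 h after DOX was taken away, and the chromatin was cut with MNase and precipitated with anti-FLAG beads. The sample descriptions speak of cells kept in DOX without the tagged protein, but titles, growth and treatment protocols and the methods give induced cells, and the libraries are read here as induced. The FLAG-wt-Cdx1 library kept 16452141 tags and the FLAG-wt-Cdx2 library 13781541 tags, 83.8% as many. A pileup is the number of fragments over the summit and is not scaled to depth in the lists. With 1 library per factor and 1 clone behind each, no difference between the factors was tested, and factor, clone and library cannot be told apart. All intervals are 95% intervals for counting error only. Neither an input nor a library of cells lacking FLAG-tagged protein was analyzed here.

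CDX1 and CDX2 are homeodomain transcription factors of the intestinal epithelium, and they bind AT-rich DNA with a core such as TTTAT. CD44 is a cell-surface receptor for hyaluronan and a known target of β-catenin. PROM1 encodes CD133, a membrane glycoprotein of cell protrusions that is widely used to sort tumor-initiating cells. ALDH1B1 is a mitochondrial aldehyde dehydrogenase found in intestinal stem cells and colon tumors, and PHLDA1 is a protein with a pleckstrin homology-like domain that marks crypt stem cells and adenoma cells. The lists record where the tagged factors were recovered and not whether these genes were expressed.

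The transcription start site (TSS) was placed 20 kb inside the 5′ edge of each window. RefSeq gene lengths were 0.67 to 1.2 kb shorter than the windows without their flanks, so distances from the TSS are good to about 1 kb. RefSeq lists 1 promoter each for CD44, ALDH1B1 and PHLDA1 and 4 promoters for PROM1, spread over 7.91 kb. The 250 bases before the start are shown for each gene, because distances are given from the 5′ end of the gene, which for PROM1 is the outermost promoter. The innermost PROM1 promoter is shown as well, chosen because it held the most motif matches of the 4, and no distance was measured from it. Capitals mark the CDX core TTTAT on either strand (ATAAA as read here), its longer form TTTATNG, which overlaps the core, and the TCF/LEF words, which are CTTTG followed by AT, AA, TT or TA. The sequences are from RefSeq on GRCh38.p14, a different build from that of the peaks.
CD44 promoter (chr11:35138921-35139170, + strand): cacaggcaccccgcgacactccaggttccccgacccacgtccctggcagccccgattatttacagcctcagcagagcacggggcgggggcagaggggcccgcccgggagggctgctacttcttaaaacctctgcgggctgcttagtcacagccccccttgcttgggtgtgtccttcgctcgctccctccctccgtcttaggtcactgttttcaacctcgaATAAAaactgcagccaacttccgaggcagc
PROM1 outermost promoter (chr4:16084024-16084273, - strand): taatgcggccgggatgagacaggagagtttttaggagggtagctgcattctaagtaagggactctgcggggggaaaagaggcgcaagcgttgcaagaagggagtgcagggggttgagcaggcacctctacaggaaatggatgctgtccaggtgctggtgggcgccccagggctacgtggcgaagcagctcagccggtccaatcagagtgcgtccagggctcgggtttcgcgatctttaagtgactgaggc
PROM1 innermost promoter (chr4:16076119-16076368, - strand): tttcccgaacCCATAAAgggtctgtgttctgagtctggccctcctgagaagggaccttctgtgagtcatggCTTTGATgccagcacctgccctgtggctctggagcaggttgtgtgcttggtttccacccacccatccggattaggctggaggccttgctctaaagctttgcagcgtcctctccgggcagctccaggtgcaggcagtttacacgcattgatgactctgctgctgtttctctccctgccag
ALDH1B1 promoter (chr9:38392452-38392701, + strand): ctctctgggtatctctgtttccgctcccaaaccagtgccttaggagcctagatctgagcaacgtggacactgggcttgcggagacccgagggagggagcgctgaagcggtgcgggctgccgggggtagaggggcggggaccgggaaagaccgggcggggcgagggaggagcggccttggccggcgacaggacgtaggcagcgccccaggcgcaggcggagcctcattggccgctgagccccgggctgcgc
PHLDA1 promoter (chr12:76031777-76032026, - strand): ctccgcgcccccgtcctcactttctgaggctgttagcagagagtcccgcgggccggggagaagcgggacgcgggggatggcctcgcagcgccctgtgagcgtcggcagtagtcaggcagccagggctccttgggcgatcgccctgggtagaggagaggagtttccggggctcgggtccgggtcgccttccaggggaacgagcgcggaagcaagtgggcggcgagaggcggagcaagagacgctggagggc
The CD44 promoter held 1 core, ending 26 bases before the start. The outermost PROM1 promoter held 0 matches. Of all PROM1 promoters, 2 of 4 held a core, and the innermost also held 1 longer form and 1 TCF/LEF word, CTTTGAT. The promoters of ALDH1B1 and PHLDA1 held 0 matches of any kind, which says only that these letters are not in these windows. Over all 34943 promoters, 32.8% held the core, 8.95% the longer form and 12.0% a TCF/LEF word. The sequence under the peaks themselves was not analyzed here.

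Peaks were called in all 4 windows with both factors, and each gene had a summit within 5 kb of its TSS in both libraries. How many genes at large have such a summit was not counted. Peaks were frequent on the chromosomes of the 4 genes, at 5.57 to 8.09 per 100 kb. Without that count, a summit this close cannot be called particular to these genes or common to most genes. CD44 and PHLDA1 carried the highest pileups, up to 34 and 21 fragments with FLAG-wt-Cdx2, whereas ALDH1B1 had 1 FLAG-wt-Cdx1 peak and 2 FLAG-wt-Cdx2 peaks of 8 to 10 fragments. Of the members, 11 FLAG-wt-Cdx1 summits had a FLAG-wt-Cdx2 summit within 100 bp, at CD44, PROM1 and PHLDA1 (39.3%, exact interval 21.5 to 59.4). The share over the whole FLAG-wt-Cdx1 list was 29.2%, which lies inside this interval. The same 11 pairs made up 37.9% of the FLAG-wt-Cdx2 members (20.7 to 57.7), against 26.3% of the whole list, again inside the interval. Counting any overlap of at least 1 bp, 13 members of each library were shared, 46.4% and 44.8%, against 34.2% of the FLAG-wt-Cdx1 list and 30.8% of the FLAG-wt-Cdx2 list.

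**Figure D1:**
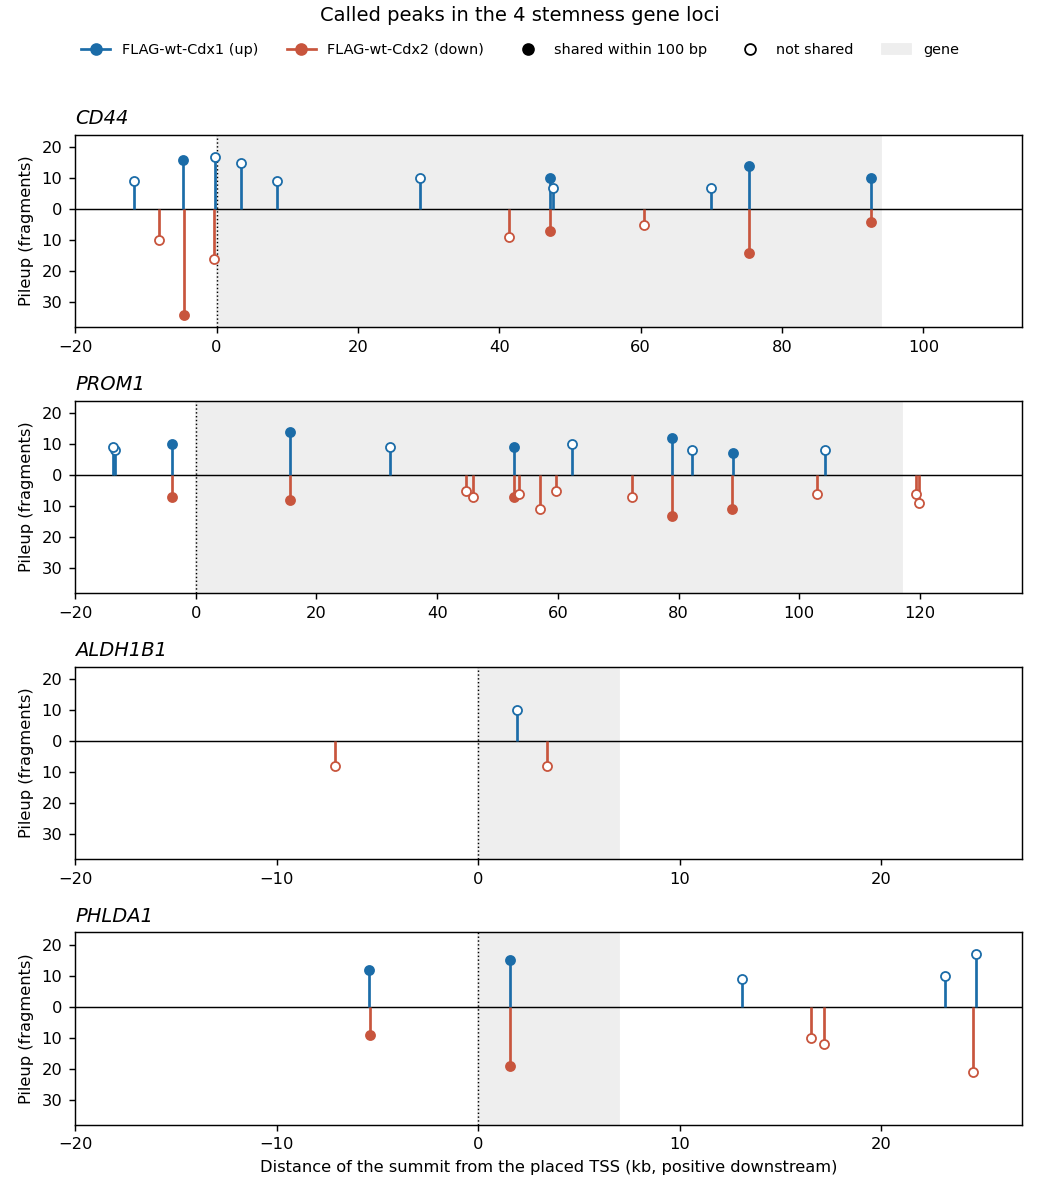
Pileup in fragments (vertical axis, FLAG-wt-Cdx1 upward and FLAG-wt-Cdx2 downward) of every called peak in the 4 windows, by distance of its summit from the placed TSS in kb. Filled points are summits within 100 bp of one in the other library, open points are not, and grey marks the gene; the tallest stem is the FLAG-wt-Cdx2 peak of 34 fragments upstream of CD44.

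CD44 held 11 FLAG-wt-Cdx1 peaks and 8 for FLAG-wt-Cdx2, and by pileup the highest of each library lay at the 5′ end of the gene. By fold enrichment (8.22) and −log10 q (10.3), the highest FLAG-wt-Cdx1 peak was instead the one 75.29 kb into the gene. The tallest was a FLAG-wt-Cdx2 peak at chr11:35155235-35155463, with its summit 4.66 kb upstream of the TSS. Its pileup was 34 fragments (23.5 to 47.5) with a fold enrichment of 12.3 over the local background, and its pileup was above that of 99.6% of the FLAG-wt-Cdx2 peaks. The FLAG-wt-Cdx1 summit 32 bp away had 16 fragments (9.15 to 26.0) and a fold enrichment of 7.28, at the 91.3 percentile of its list. Scaled to 10000000 kept tags, the pileups were 24.7 with FLAG-wt-Cdx2 and 9.73 with FLAG-wt-Cdx1, a ratio of 2.54 (1.36 to 4.92). This was the only one of the 11 pairs whose counting interval did not hold 1. How many of all pairs in the lists have such an interval was not counted. The ratio of the fold enrichments of this CD44 pair was lower, at 1.7. A ratio of at least 2 in favor of FLAG-wt-Cdx2 was found at 1 of the 11 pairs, against 4.6% of the 57545 pairs in the whole lists.

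The summits nearest the CD44 TSS lay 0.25 kb upstream with FLAG-wt-Cdx1 and 0.35 kb upstream with FLAG-wt-Cdx2. Given the placement of the TSS, they may fall on either side of the start. The FLAG-wt-Cdx1 peak had 17 fragments (9.9 to 27.2) and the FLAG-wt-Cdx2 peak 16 fragments (9.15 to 26.0). These were wide peaks of 364 bp and 426 bp, at the 96.3 and 98.2 percentiles of length, and the FLAG-wt-Cdx1 peak lay wholly inside the FLAG-wt-Cdx2 peak. Their summits were 102 bp apart and therefore just missed the limit for sharing, whereas the pair just inside it, at PROM1, was 100 bp apart. The local background, given as tags per 10 kb, was also raised here. It was 102 to 125 tags at the 3 FLAG-wt-Cdx1 peaks from 4.69 kb upstream to 3.43 kb downstream and 112 to 135 tags at the 3 upstream FLAG-wt-Cdx2 peaks, compared with genome-wide values of 60.9 and 51.0. As no control library entered the peak calling, this background includes the fragments of the peaks, and its part in the pileups was not tested.

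Inside CD44, the FLAG-wt-Cdx1 peak 3.43 kb downstream of the TSS (chr11:35163352-35163505) had 15 fragments, enriched 6.59-fold. It lay 3.78 kb from the closest FLAG-wt-Cdx2 summit, and it is named, after its values were seen, as the highest FLAG-wt-Cdx1 member with no FLAG-wt-Cdx2 summit within 200 bp. Farther in, 3 pairs were shared. At 75.29 kb from the TSS, the summits were 4 bp apart and both pileups were 14 fragments (7.65 to 23.5). Fold enrichment was 8.22 for the FLAG-wt-Cdx1 peak, while the FLAG-wt-Cdx2 peak had 7.74. The pair at 47.1 kb, 5 bp apart, had 10 FLAG-wt-Cdx1 and 7 FLAG-wt-Cdx2 fragments. The pair at 92.6 kb, close to the 3′ end of the gene, had 10 and 4 fragments and a ratio of 0.478 (0.109 to 1.66). It was the 1 pair of 11 with a ratio of at least 2 in favor of FLAG-wt-Cdx1, against 3.11% of all pairs, and its 4 fragments are the lowest pileup called anywhere in the FLAG-wt-Cdx2 list. The remaining unshared CD44 peaks had 7 to 10 fragments (FLAG-wt-Cdx1) and 5 to 10 fragments (FLAG-wt-Cdx2). The downstream flank, toward SLC1A2, held 0 peaks in both libraries.

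At PHLDA1, 5 peaks were called with each factor in a window of 47 kb. The pair nearest the TSS lay 1.58 kb downstream of it, within the gene, with summits 3 bp apart. The FLAG-wt-Cdx1 peak (chr12:76424292-76424584) had 15 fragments (8.4 to 24.7) and a fold enrichment of 8.35, and the FLAG-wt-Cdx2 peak (chr12:76424302-76424655) had 19 fragments (11.4 to 29.7) and a fold enrichment of 8.24. The scaled pileup ratio was 1.51 (0.728 to 3.2), an interval that holds 1. Both peaks stood high in their lists, at the 88.8 and 97.7 percentiles of pileup. RefSeq also places the antisense gene PHLDA1-AS1 at this end of PHLDA1 and the divergent transcript PHLDA1-DT just beyond it, and binding here cannot be assigned to one of these genes from position alone.

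The upstream flank of PHLDA1, toward NAP1L1, held 1 pair, 5.4 kb from the TSS with summits 9 bp apart, with 12 FLAG-wt-Cdx1 and 9 FLAG-wt-Cdx2 fragments. The widest member of the whole set lay downstream. It was a FLAG-wt-Cdx2 peak of 645 bp (chr12:76400898-76401542), longer than 99.6% of its list, with 21 fragments (13.0 to 32.1) and a fold enrichment of 8.63. The FLAG-wt-Cdx1 peak of 406 bp inside it had 17 fragments (9.9 to 27.2) and a fold enrichment of 8.79. Their summits were 118 bp apart, about 24.6 kb from the PHLDA1 TSS, outside the sharing limit although the intervals overlapped by 406 bp. Of the other downstream peaks, 2 FLAG-wt-Cdx1 peaks had 9 and 10 fragments and 2 FLAG-wt-Cdx2 peaks had 10 and 12, and these lay at different places in the libraries. The local background differed between the libraries in this window. It was 105 to 114 tags per 10 kb at 4 of the 5 FLAG-wt-Cdx2 peaks and 62 at the other, against 70 to 84 at the FLAG-wt-Cdx1 peaks, although the FLAG-wt-Cdx2 library had fewer tags. Its part in the pileups was not tested.

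At PROM1, the longest of the 4 windows (157 kb), 11 FLAG-wt-Cdx1 peaks were called and 14 for FLAG-wt-Cdx2, and none stood in the top 10% of its list by pileup. The nearest summits to the outermost TSS were a pair 3.98 kb upstream and 7 bp apart, with 10 fragments for FLAG-wt-Cdx1 (4.8 to 18.4) and 7 for FLAG-wt-Cdx2 (2.81 to 14.4). No summit of either library lay between this pair and one 15.54 kb inside the gene, a stretch that takes in all 4 annotated promoters. At that inner pair, the summits were 2 bp apart. FLAG-wt-Cdx1 had 14 fragments and a fold enrichment of 8.34, its highest at PROM1, and FLAG-wt-Cdx2 had 8 fragments and a fold enrichment of 5.31, a scaled ratio of 0.682 (0.248 to 1.74).

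The highest FLAG-wt-Cdx2 peak at PROM1 lay in the gene, 78.85 kb from the TSS (chr4:16007076-16007267), with 13 fragments (6.92 to 22.2). The FLAG-wt-Cdx1 summit 87 bp away had 12 fragments (6.2 to 21.0). Fold enrichments were 6.62 (FLAG-wt-Cdx2) and 6.74 (FLAG-wt-Cdx1), and the scaled ratio was 1.29 (0.544 to 3.1). A pair at 52.7 kb had 9 FLAG-wt-Cdx1 and 7 FLAG-wt-Cdx2 fragments, and the pair of summits 100 bp apart, at 89.0 kb, had 7 and 11. The 6 unshared FLAG-wt-Cdx1 peaks had 8 to 10 fragments and the 9 unshared FLAG-wt-Cdx2 peaks 5 to 11. With FLAG-wt-Cdx2, 2 of these lay past the 3′ end of PROM1, toward FGFBP2, where FLAG-wt-Cdx1 had 0 peaks. With FLAG-wt-Cdx1, a pair of neighboring peaks 314 bp apart lay more than 13 kb upstream of the TSS, where FLAG-wt-Cdx2 had 0 peaks. The lowest pileup called anywhere in the lists was 5 fragments (FLAG-wt-Cdx1) and 4 fragments (FLAG-wt-Cdx2). The limit at a given place also depends on its local background. A count of 0 therefore means that no peak was called, and weaker binding may have been missed.

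ALDH1B1 carried the fewest peaks. The FLAG-wt-Cdx1 peak (chr9:38393818-38393956) had its summit 1.91 kb downstream of the TSS, within the gene, with 10 fragments (4.8 to 18.4) and a fold enrichment of 5.9. FLAG-wt-Cdx2 had 8 fragments (3.45 to 15.8) at each of 2 peaks, of which 1 lay within the gene at 3.41 kb and the other 7.11 kb upstream, with fold enrichments of 4.2 and 5.31. The FLAG-wt-Cdx1 and FLAG-wt-Cdx2 summits within the gene were 1501 bp apart, and 0 pairs were shared. The pileups stood at the 50.1 percentile for FLAG-wt-Cdx1 and at 44.8 for both FLAG-wt-Cdx2 peaks. The downstream flank, toward IGFBPL1, held 0 peaks in both libraries.

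Across the 11 shared pairs, the scaled pileup ratio of FLAG-wt-Cdx2 to FLAG-wt-Cdx1 ranged from 0.478 to 2.54 with a median of 0.928, compared with 1.05 over the 57545 pairs of the lists (quartiles 0.817 and 1.34). The ratio was above 1 at 5 pairs and below 1 at 6, and 10 of the 11 intervals held 1, a share that was not counted over the lists. Summed over the pairs, the pileups were 129 fragments for FLAG-wt-Cdx1 against 133 for FLAG-wt-Cdx2, a scaled ratio of 1.23 (0.959 to 1.58), on the other side of 1 from the median. The summits of the pairs were 9 bp apart at the median, against 26 bp over the lists.

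**Figure D2:**
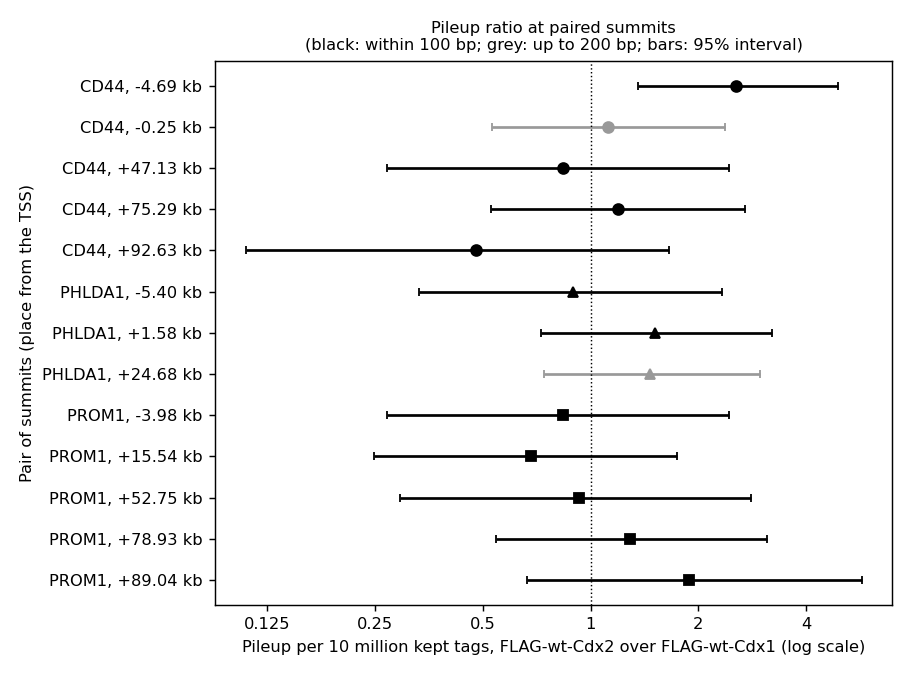
Ratio of pileups scaled to kept tags, FLAG-wt-Cdx2 over FLAG-wt-Cdx1 (log scale), at the 11 pairs of summits within 100 bp (black) and at the pairs 102 and 118 bp apart (grey), with 95% counting intervals. Among the black points, the interval of the CD44 pair 4.69 kb upstream of the TSS (ratio 2.54) is the one that does not reach 1.

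Sharing was looked at again among the tall peaks, with a limit of 14 fragments chosen after the values were seen. It was reached by 7 FLAG-wt-Cdx1 members, of which 4 had a FLAG-wt-Cdx2 summit within 100 bp and 6 within 200 bp, compared with 53% and 57.7% of such peaks in the whole list. It was reached by 5 FLAG-wt-Cdx2 members, of which 3 had a FLAG-wt-Cdx1 summit within 100 bp and 5 within 200 bp, compared with 65% and 70.3%. A limit of 16 fragments left 3 FLAG-wt-Cdx1 members, 1 of them shared within 100 bp (list 57.3%), and 4 FLAG-wt-Cdx2 members, 2 of them shared (list 71%). The members added by the wider limit are the wide peaks next to the CD44 TSS and downstream of PHLDA1. Among the members that were not shared at 100 bp, 14 of 17 FLAG-wt-Cdx1 and 15 of 18 FLAG-wt-Cdx2 summits were more than 1 kb from any summit of the other library. The same share was not counted over the whole lists, so this spacing cannot be called particular to these loci.

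The members were then ranked within their own lists. A pileup above the list median was found at 16 of 28 FLAG-wt-Cdx1 members, against 49.9% of that list, and at 14 of 29 FLAG-wt-Cdx2 members, against 39.8%. A pileup above the 90th percentile was found at 3 FLAG-wt-Cdx1 members, 2 of them at CD44 and 1 at PHLDA1, against 8.67% of the list. With FLAG-wt-Cdx2 it was found at 5 members, 3 at CD44 and 2 at PHLDA1, against 7.62% of the list. A −log10 q of at least 5 was reached by 17 FLAG-wt-Cdx1 members (60.7%, list 52.2%) and 11 FLAG-wt-Cdx2 members (37.9%, list 29%). The ranks depended on the measure. By fold enrichment, the FLAG-wt-Cdx1 peak inside PROM1 at 15.54 kb rose from the 85.1 to the 94.1 percentile, and the FLAG-wt-Cdx1 peak next to the CD44 TSS went from 93.2 to 84.1.

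The density of called peaks was set beside that of each gene's own chromosome. At PHLDA1, 10.6 peaks per 100 kb were called with either factor, which was 1.46 (FLAG-wt-Cdx1) and 1.32 (FLAG-wt-Cdx2) times the density of chromosome 12. CD44 had 8.21 peaks per 100 kb (FLAG-wt-Cdx1) and 5.97 (FLAG-wt-Cdx2), 1.13 and 0.762 times chromosome 11. PROM1 had 7.01 and 8.92, 0.979 and 1.1 times chromosome 4. ALDH1B1 had 2.13 and 4.26, 0.382 and 0.67 times chromosome 9. Each density rests on 1 to 14 peaks. Around the PHLDA1 window, out to 200 kb from the TSS, the density was higher still, at 11.9 (FLAG-wt-Cdx1) and 14.2 (FLAG-wt-Cdx2). By these counts, the PHLDA1 window was denser than its chromosome and less dense than its surroundings. Its density rests on 5 peaks in each library, and neither difference was tested. ALDH1B1 was also below its surroundings in both libraries, whereas CD44 and PROM1 were above theirs. With only peaks of a −log10 q of at least 5, CD44 with FLAG-wt-Cdx2 turned from below to above its chromosome (1.27 times), and PHLDA1 went to 2.28 (FLAG-wt-Cdx1) and 2.77 (FLAG-wt-Cdx2) times its own. CD44 was then above PROM1 in both libraries, whereas over all peaks their order was opposite in the libraries. At these 3 genes, such values rest on 3 to 7 peaks per window and library. Each lies inside the counting interval of the value over all peaks.

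**Figure D3:**
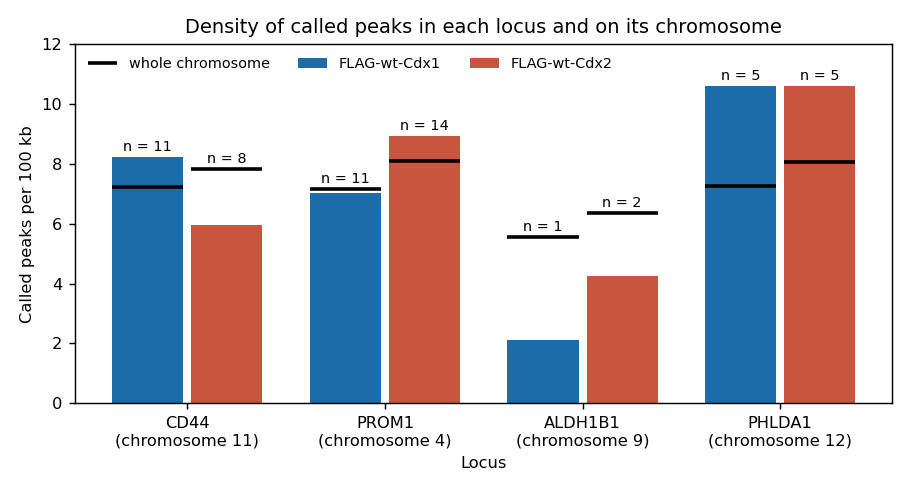
Called peaks per 100 kb in each window (bars, with the number of peaks n) for FLAG-wt-Cdx1 (blue) and FLAG-wt-Cdx2 (red), and over the whole chromosome of the gene (black lines). The PHLDA1 bars (10.6) stand above their chromosome lines and the ALDH1B1 bars (2.13 and 4.26) below them. Within 200 kb of the PHLDA1 TSS but outside its window, the densities were higher than these bars, at 11.9 (FLAG-wt-Cdx1) and 14.2 (FLAG-wt-Cdx2).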

How the data were processed

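Peaks were taken from the lists that the authors deposited, 1 per library. According to the list headers, the authors ran MACS 2.0.10.20131216 without a control library, keeping 1 tag at a position and peaks below a q-value of 0.05. The submitters' processing notes name bcl2fastq 1.8.3, cutadapt 1.1, Trimmomatic 0.32 and the build GRCh37. The headers carry the names of both bowtie and BWA, so which aligner made the alignments is not clear. The deposited pileup signal is unscaled, the deposited fold enrichment is the ratio of pileup to background with a pseudocount of 1 on each, the background being that of the surrounding 10 kb or, where this was lower, of the whole genome (9 of 28 FLAG-wt-Cdx1 members, 10 of 29 for FLAG-wt-Cdx2), and the lists also hold −log10 p-values and q-values. The narrowPeak files, with the deposited score, held the same peaks.

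The local background was recovered from the pileup and fold enrichment. Summits within 100 bp were called shared. Shares have exact Clopper-Pearson intervals, pileups exact Poisson intervals, and ratios exact conditional binomial intervals. Within each window, the highest and the TSS-nearest peaks and all shared pairs are given singly and the rest as ranges. The members and motif lists were chosen with earlier results of these data known. The sharing step was tested on simulated data. With 1 library per factor, no test was made. Scripts ran in Python 3.11.15 with scipy 1.17.1, pandas 2.3.3, numpy 2.4.6 and matplotlib 3.10.9. A count over other stemness genes was not made, since no annotation of GRCh37 was used here.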

Additional observations from a re-analysis of the deposited data

How the results depend on the processing

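In each pair of values below, FLAG-wt-Cdx1 comes before FLAG-wt-Cdx2. Limiting the lists to a −log10 q of at least 5 left 17 and 11 members, and limiting the windows to the genes left 18 and 18. The share of members that were shared stayed inside its interval under the 10 settings tried, from 23.5% to 46.4% for FLAG-wt-Cdx1 and from 31% to 44.8% for FLAG-wt-Cdx2. These intervals are wide (21.5 to 59.4 and 20.7 to 57.7), so staying inside them says little about stability. Except for the overlap of at least 1 bp, the share of the whole lists under these settings was not computed. The median pileup ratio was 0.778 without scaling, 0.907 by fold enrichment, 0.895 with summits within 50 bp and 1.12 with summits within 200 bp, the last setting chosen after the data were seen. It thus crossed 1 when the pairs 102 and 118 bp apart were added.

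Moving the TSS by 1 kb moved all distances by construction. With the TSS moved upstream, the nearest summits lay (in kb, positive downstream) 0.75 and 0.65 at CD44, -2.98 and -2.98 at PROM1, 2.91 and 4.41 at ALDH1B1 and 2.58 and 2.58 at PHLDA1, so the CD44 summits changed sides. With the TSS moved downstream, they lay -1.25 and -1.35 at CD44, -4.98 and -4.98 at PROM1, 0.91 and 2.41 at ALDH1B1 and 0.58 and 0.58 at PHLDA1. The peak of the highest pileup in each window was also ranked in other ways, with the choice of peak held fixed. By fold enrichment, its percentile was 84.1 and 99.5 at CD44, 94.1 and 88.7 at PROM1, 67.3 and 64.0 at ALDH1B1 and 95.8 and 96.9 at PHLDA1. By −log10 q, it was 89.0 and 99.6 at CD44, 92.3 and 89.0 at PROM1, 63.8 and 59.8 at ALDH1B1 and 95.5 and 97.9 at PHLDA1. By pileup among peaks of the same chromosome, it was 94.5 and 99.7 at CD44, 86.8 and 90.4 at PROM1, 53.2 and 44.5 at ALDH1B1 and 95.1 and 98.4 at PHLDA1. A different FLAG-wt-Cdx1 peak, 75.29 kb into CD44, was the highest there by fold enrichment (93.7 percentile) and by −log10 q (91.95 percentile). The cause of these changes in rank was not tested. Density relative to the chromosome, with a −log10 q of at least 5, was 1.41 and 1.27 at CD44, 0.851 and 1.07 at PROM1, 0.751 and 0 at ALDH1B1 (no FLAG-wt-Cdx2 peak left) and 2.28 and 2.77 at PHLDA1. CD44 thus turned from below to above 1 with FLAG-wt-Cdx2, and ALDH1B1 with FLAG-wt-Cdx1 and PHLDA1 in both libraries moved by over 1.5 times. The peaks left were few, 7 and 4 at CD44, 5 and 4 at PROM1, 1 and 0 at ALDH1B1 and 4 and 3 at PHLDA1. Except for ALDH1B1 with FLAG-wt-Cdx2, all these densities stayed inside the counting interval of the value over all peaks. The cause of the shifts was not tested. No paired analysis was possible because each factor had a single library, and for the same reason no library could be left out.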

Other observations

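Beyond the windows, the surroundings of the 4 genes differed in how many peaks they held. Within 200 kb of the TSS but outside the window, PHLDA1 had 42 FLAG-wt-Cdx1 peaks, and its FLAG-wt-Cdx2 peaks numbered 50, 11.9 and 14.2 per 100 kb. CD44 had 13 and 11 (4.89 and 4.14 per 100 kb), PROM1 11 and 19 (4.53 and 7.82), and ALDH1B1 22 and 23 (6.23 and 6.52). By these counts, the PHLDA1 window, with 5 peaks or 10.6 per 100 kb in each library, was less dense than the stretches around it. This difference was not tested. The strongest of these FLAG-wt-Cdx1 peaks was 109.9 kb downstream of the PHLDA1 TSS, with 27 fragments and a fold enrichment of 13.4, at the 98.9 percentile of its list, and a FLAG-wt-Cdx2 summit of 19 fragments lay 5 bp from it. Next to CD44, the first peaks outside the window were 43.7 kb (FLAG-wt-Cdx1) and 43.8 kb (FLAG-wt-Cdx2) beyond its upstream edge and 52.2 and 44.2 kb beyond its downstream edge, so that the CD44 peaks stood between stretches without a called peak in either library. The longest gap between FLAG-wt-Cdx2 summits inside the CD44 window was of like length, 41.7 kb. Long stretches also lay beyond other windows, such as 39.8 kb upstream of that of PROM1 (FLAG-wt-Cdx1) and 35.9 kb downstream of that of ALDH1B1 (FLAG-wt-Cdx2). The stretches around CD44 were seen after the data were examined and were not tested.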
